A study of Mus musculus with 24 samples.

Results

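The genes described here are 10 enzymes that act on reactive oxygen or that the transcription factor Nrf2 is known to switch on, measured in mouse liver after partial hepatic ischemia. They were chosen by name, as the probe sets whose RefSeq accession maps to Hmox1, Nqo1, Gclc, Gclm, Srxn1, Txnrd1, Sod1, Sod2, Cat or Gpx1. Each of the 10 had 1 probe set, so all 10 were measured among the 14351 genes tested, and no filter removed any of them. The study used total RNA of the median and left liver lobes of young mice, aged 4 to 5 weeks, and adult mice, aged 12 to 14 months. Mice of each age had a sham operation or partial hepatic ischemia lasting 30, 60 or 90 min, during which some of the lobes receive no blood. Each of the 8 groups held 3 mice with 1 array each, 24 arrays in all, and the design poses the question of which genes respond to each length of ischemia and whether the ages respond alike. Mice are numbered 1 to 3 within a group, in accession order. The titles also carry a code whose first part is shared across groups of an age, but never between the ages. Adult sham, 30 min and 60 min mice with the same number share it, as do young 60 and 90 min mice. In the other groups it does not follow the number. What it stands for is not given in the sources used here. The titles write the times as 30/0, 60/0 and 90/0, and what stands after the stroke is not given in the sources used here. No allele, strain, sex or drug is named for any group.

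Nrf2, encoded by Nfe2l2, is held in the cytoplasm by Keap1, which hands it to a ubiquitin ligase for destruction. Oxidants and electrophiles modify Keap1, and Nrf2 then enters the nucleus, pairs with small Maf proteins and binds antioxidant response elements in genes for glutathione synthesis, thioredoxin recycling, quinone reduction and heme breakdown. Superoxide dismutases turn superoxide into hydrogen peroxide, which catalase, glutathione peroxidases and peroxiredoxins remove. Liver is rich in these enzymes, and its oxygen supply stops during ischemia and returns at reperfusion.

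As deposited, every value is a ratio to sham liver, the mean over the 3 sham mice of that age being the unit. The sham mean is therefore 1 for every gene in both ages, sham livers of the ages cannot be compared, and one gene's level cannot be set against another's. The number of arrays, 3 per group, limits the precision. The ratios keep no array brightness, so whether a liver cell marker was present could not be read from them, although 14 of 16 listed hepatocyte markers had a probe set. A fall in a ratio of whole tissue can come from fewer cells of a type or from less RNA per cell, and these cannot be told apart. A gene was called when its adjusted p, from limma with Benjamini-Hochberg adjustment over all genes of a comparison, was under 0.05, and errors of log2 changes are standard errors.

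None of the 10 genes was called higher in any comparison, and the calls were falls in adult liver. After 60 min, 4 of the 10 fell in adult mice: Srxn1, Txnrd1, Sod2 and Gpx1. In that comparison 11.9% of all genes were called, and 9.78% were called lower. The 10 genes were chosen with earlier results of these data known, so such shares describe the background and do not test the set. After 90 min, 3 of the 10 fell in adult mice, Hmox1, Srxn1 and Txnrd1, where 7.45% of all genes were called and 6.28% were called lower. After 30 min in adult mice 0 of the 10 were called by limma, as were 0% of all genes, and 1 of the 10 and 1486 of all genes had an unadjusted p under 0.05. In young mice 0 of the 10 were called at 30, 60 or 90 min, where 0.0557%, 0.0279% and 0.181% of all genes were, and limma gave 1, 2 and 2 of the 10, and 1200, 1498 and 1292 of all genes, an unadjusted p under 0.05. All 10 genes lay below sham in adult mice after 60 min, where 58.7% of all genes did. Their median log2 change was -0.39 against -0.05 over all genes. The median of the 10 was -0.18 at 30 min and -0.29 at 90 min in adult mice, and -0.14, -0.14 and -0.12 at 30, 60 and 90 min in young mice. The median over all genes lay between -0.05 and -0.02 in these 6 comparisons.

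The 3 ischemic arrays lay entirely below the 3 sham arrays for 9 of the 10 genes in adult mice after 60 min, Hmox1 being the exception. Such separation, in either direction, was seen for 37% of all genes there. In adult mice after 90 min 5 of the 10 were separated and lower, where 39.1% of all genes were separated. After 30 min the adult count was 1, Gpx1, and 11.5% of all genes were separated. In young mice the counts were 0 after 30 min, 1 after 60 min (Srxn1, lower) and 2 after 90 min (Hmox1 lower, Gclc higher). The shares of all genes separated in young mice were 14.8%, 13.3% and 13.9%.

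**Figure D1:**
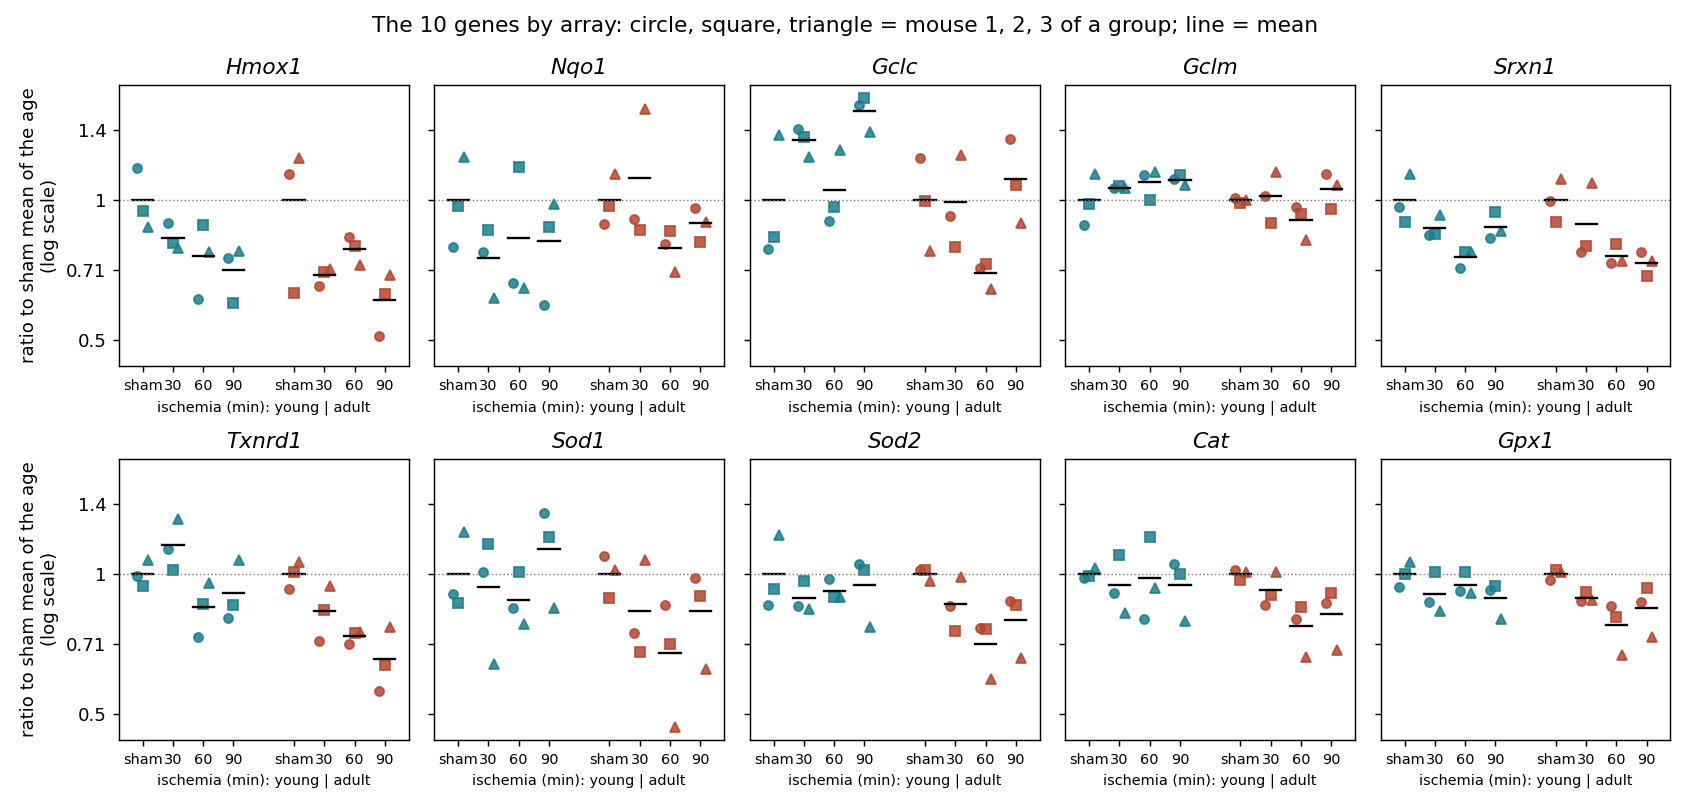
Ratio of each of the 10 genes to the sham mean of its age (vertical axis, log scale) for the 3 arrays of each group, with young mice in blue-green, adult mice in red, and a line at the mean of the group. After 60 min the adult points of every gene lie below 1, from 0.468 for Sod1 to 0.966 for Gclm, whereas the young Gclc points after 90 min lie at 1.40, 1.60 and 1.66.

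Srxn1 encodes sulfiredoxin, which restores overoxidised peroxiredoxins, and Txnrd1 encodes the cytosolic thioredoxin reductase, which keeps thioredoxin reduced. Both are known Nrf2 targets, and both fell in adult mice at 60 and at 90 min, comparisons that share the 3 sham arrays. For Txnrd1 the adult sham ratios were 0.929, 1.01 and 1.06, and the ratios after 30 min were 0.717, 0.835 and 0.940. They were 0.705, 0.745 and 0.750 after 60 min and 0.560, 0.637 and 0.767 after 90 min. The arrays at 60 and 90 min all lay below every sham array, whereas 1 array at 30 min lay just above the lowest sham array. The log2 change of Txnrd1 was -0.45 ± 0.13 at 60 min (n = 3 per group; limma adjusted p = 0.0403) and -0.62 ± 0.13 at 90 min (adjusted p = 0.0194), which was the lowest adjusted p of the 10 genes. At 90 min its level was 1.54-fold lower than in sham liver. In young mice Txnrd1 stood at 1.02, 1.13 and 1.31 after 30 min, against 0.941, 0.989 and 1.07 in sham liver. It stood at 0.730, 0.863 and 0.956 after 60 min and at 0.802, 0.857 and 1.07 after 90 min. The young groups overlapped sham at each time, and none of the young changes of Txnrd1, 0.20 ± 0.13, -0.24 ± 0.13 and -0.15 ± 0.13, passed.

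For Srxn1 the adult sham ratios were 0.897, 0.995 and 1.11. They were 0.733, 0.738 and 0.803 after 60 min and 0.686, 0.740 and 0.774 after 90 min, with no overlap at either time. The log2 changes were -0.40 ± 0.12 (limma adjusted p = 0.0384) and -0.44 ± 0.12 (adjusted p = 0.0321). In young mice after 60 min Srxn1 stood at 0.716, 0.773 and 0.774, against 0.895, 0.967 and 1.14 in sham liver. That young change was also -0.40 ± 0.12, and its unadjusted p was 0.00254 against 0.00282 in adult mice, but its limma adjusted p was 0.239, and it did not pass. The adult minus young difference at 60 min was 0.01, with a 95% interval from -0.34 to 0.35. Young Srxn1 after 30 and 90 min had means of 0.872 ± 0.0490 (SD, n = 3) and 0.877 ± 0.0593, and adult Srxn1 after 30 min one of 0.886 ± 0.177, and none of these passed.

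The promoters of the 10 genes were searched for the core of the antioxidant response element, TGACNNNGC, on both strands, in windows from 250 bases before to 50 bases after each start annotated by RefSeq (GRCm38.p6). The core is shown because it is the sequence Nrf2 is known to bind. Promoter windows matched 8 of the 10 symbols, all but Hmox1 and Gclc. The core stood in 4 of the 10 windows of these 8 genes, and in 12.4% of all 32851 windows of the same 300 bases. The 4 matches follow, each of 29 bases on the strand of the gene, with the core, which lies on the opposite strand in each, in capitals.
Txnrd1, chr10:82859104-82859132: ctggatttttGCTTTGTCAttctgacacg
Srxn1, chr2:152105542-152105570: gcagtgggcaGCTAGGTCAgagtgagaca
Gclm, chr3:122245413-122245441: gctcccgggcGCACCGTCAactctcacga
Sod1, chr16:90220696-90220724: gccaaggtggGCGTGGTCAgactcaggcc
The match of Txnrd1 begins 92 bases before 1 of its 3 annotated starts, and the windows of the other starts hold none. The match of Gclm begins 134 bases before the start and that of Sod1 56 bases before it, and that of Srxn1 begins 28 bases after it. The windows of Nqo1, Sod2, Cat and Gpx1 do not hold these letters. Which start of Txnrd1 the probe set reads is not given in the sources used here. A match describes letters only, and these arrays did not measure binding. Of the 4 genes with a match, Txnrd1 and Srxn1 passed in adult mice, and Gclm and Sod1 did not. Sod2 and Gpx1, without one, passed at 60 min.

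The 250 bases before that start of Txnrd1, chr10:82858956-82859205, are printed to show the match in its context, again with the core in capitals.
Txnrd1 upstream: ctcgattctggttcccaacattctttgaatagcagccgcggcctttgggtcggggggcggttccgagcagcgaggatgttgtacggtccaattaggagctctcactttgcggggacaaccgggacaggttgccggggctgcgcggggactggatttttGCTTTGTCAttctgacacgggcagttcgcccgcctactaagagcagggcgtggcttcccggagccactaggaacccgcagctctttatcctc

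Gclc and Gclm encode the catalytic and modifier subunits of glutamate-cysteine ligase, the enzyme that limits glutathione synthesis, and were the genes of the set with positive changes in young mice at each time. Gclc in young sham liver stood at 0.786, 0.832 and 1.38. It stood at 1.24, 1.37 and 1.42 after 30 min, at 0.901, 0.968 and 1.28 after 60 min, and at 1.40, 1.60 and 1.66 after 90 min. Only the 90 min group lay above all sham arrays, and 1 sham array was close to it. The log2 change of Gclc at 90 min was 0.68 ± 0.21, with an unadjusted p of 0.00369 in limma and an adjusted p of 0.221, so it did not pass. At 30 min it was 0.47 ± 0.21 (adjusted p = 0.543). In adult mice Gclc stood at 0.645, 0.716 and 0.729 after 60 min, below adult sham arrays at 0.776, 0.997 and 1.23, a change of -0.50 ± 0.21 (adjusted p = 0.101). After 90 min adult Gclc was at 0.892, 1.08 and 1.35, overlapping sham, with a change of 0.15 ± 0.21.

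Gclm varied least among replicates in adult sham liver, where it stood at 0.986, 1.00 and 1.01. Young Gclm was at 1.06, 1.06 and 1.07 after 30 min and at 1.08, 1.11 and 1.13 after 90 min, against young sham arrays at 0.882, 0.979 and 1.14. The highest sham array lay above all of these. The young log2 changes of Gclm were 0.10, 0.13 and 0.16, each ± 0.10. Adult Gclm at 60 min stood at 0.820, 0.934 and 0.966, below all sham arrays, with a change of -0.14 ± 0.10 (limma adjusted p = 0.332). No change of Gclm passed.

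Hmox1 encodes the inducible heme oxygenase, which splits heme into biliverdin, carbon monoxide and iron. It fell in adult mice after 90 min, to 0.510, 0.627 and 0.690, while the adult sham arrays stood at 0.630, 1.14 and 1.23. Adult sham mouse 2, at 0.630, lay within the 90 min range, so the groups overlapped. The log2 change was -0.67 ± 0.19 (limma adjusted p = 0.0408), a level 1.59-fold lower. After 30 min adult Hmox1 stood at 0.653, 0.701 and 0.712 and after 60 min at 0.725, 0.797 and 0.832, with changes of -0.48 ± 0.19 (adjusted p = 0.461) and -0.29 ± 0.19 (adjusted p = 0.290). Without adult sham mouse 2 the changes were -0.78, -0.60 and -0.97 at 30, 60 and 90 min, and all 3 passed (limma adjusted p = 0.0415, 0.0466 and 0.00509). The call at 90 min was lost when any other single array of the comparison was left out. In young mice Hmox1 had means of 0.830 ± 0.0552 (SD, n = 3), 0.757 ± 0.137 and 0.709 ± 0.0953 after 30, 60 and 90 min, against 1 ± 0.155 in sham liver. The 3 young arrays at 90 min, at 0.600, 0.749 and 0.778, lay below the sham arrays, which stood at 0.877, 0.948 and 1.17, and the change of -0.49 ± 0.19 did not pass (adjusted p = 0.379).

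Hmox1 is also made by Kupffer cells, the macrophages that live in the liver sinusoids, and Kupffer cell markers were also low on the adult 90 min arrays. In adult mice after 90 min, 12 of the 14 measured markers fell and all 14 lay below sham, with a median log2 change of -1.07. Over all genes 6.28% were called lower there, and 9.78% in adult mice at 60 min. Their mean log2 ratio was -1.60, -0.99 and -1.11 on the 3 arrays at 90 min, and -0.37, -0.42 and 0.46 on the 3 sham arrays. Adult sham mouse 2 had the lowest Hmox1 and the lowest marker mean of the adult sham arrays, but mouse 1, at -0.37, had Hmox1 at 1.14. Young sham mouse 3 had the highest marker mean of its group, 0.25, and the lowest Hmox1, 0.877. In young mice at 90 min the markers were lowest on mouse 1 (-0.66) and Hmox1 on mouse 2 (0.600). In the remaining groups the lowest array was the same for both. Replicate 1 at 90 min had the lowest values of both among all 24 arrays. Cd163, the macrophage receptor for hemoglobin, stood at 0.201, 0.316 and 0.329 after 90 min against 0.780, 1.07 and 1.15 in sham liver, a change of -1.84 ± 0.25 (limma adjusted p = 0.00114). The count of 12 became 1 without adult sham mouse 3 and 1 without adult 90 min mouse 1, with medians of -0.79 and -0.90. In adult mice after 60 min, 1 of the 14 fell, Cd163, a count that became 0 without adult sham mouse 1 or 3 or adult 60 min mouse 2 or 3, and 3 without adult 60 min mouse 1. In the other comparisons with sham none was called. The part of Kupffer cells in the change of Hmox1 was not tested.

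**Figure D2:**
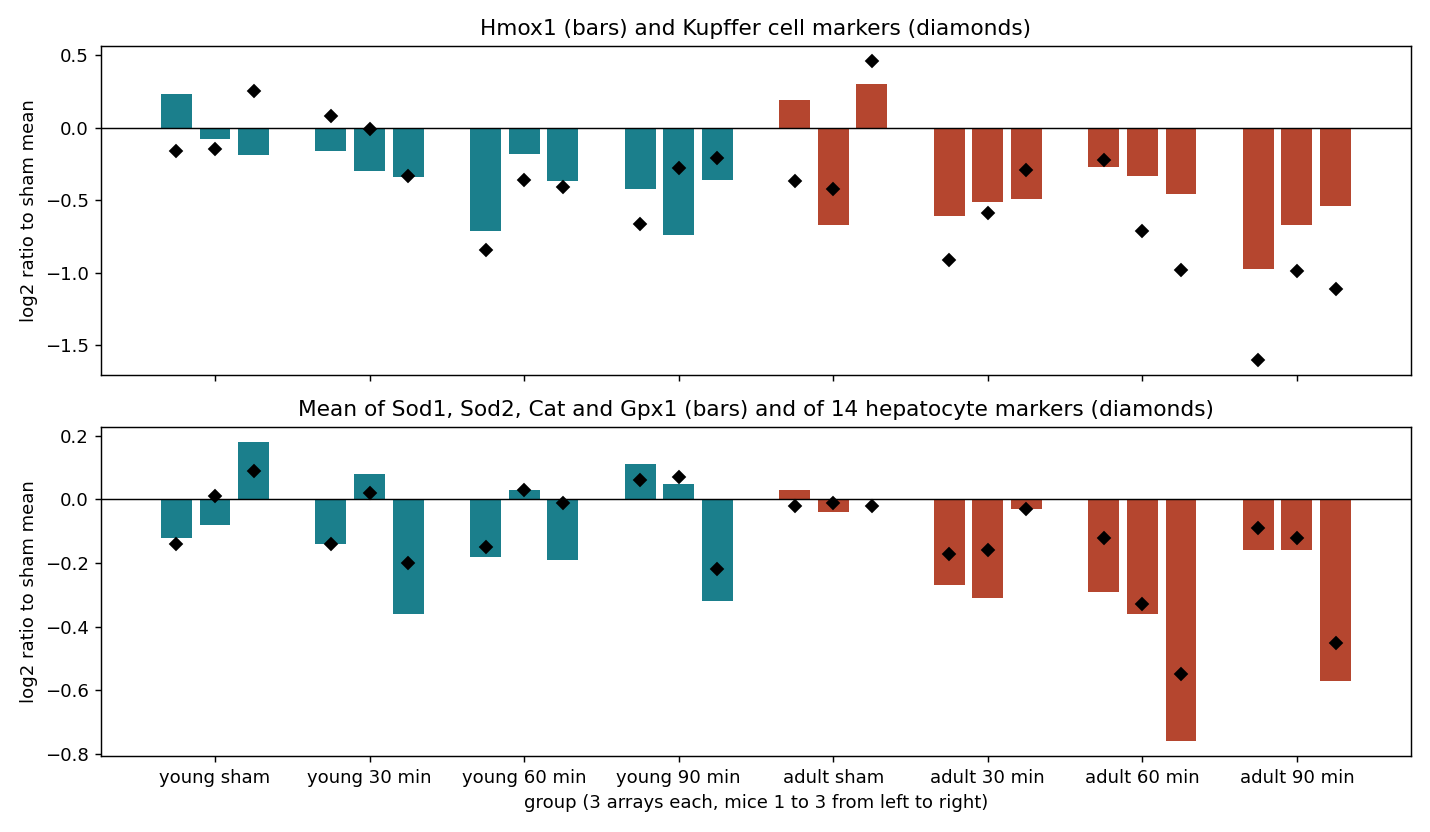
Mean log2 ratio on each of the 24 arrays (vertical axis), grouped by age and ischemia time: Hmox1 (bars) with the mean of 14 Kupffer cell markers (diamonds) above, and the mean of Sod1, Sod2, Cat and Gpx1 (bars) with the mean of 14 hepatocyte markers (diamonds) below. The Kupffer markers were lowest on adult 90 min mouse 1, at -1.60, and both series of the lower panel were lowest on adult 60 min mouse 3, at -0.76 and -0.55.

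Nqo1, which reduces quinones without leaving semiquinone radicals, did not pass in any comparison. Its adult sham ratios were 0.890, 0.972 and 1.14, and it stood at 0.700, 0.805 and 0.859 after 60 min, below all of them. That log2 change was -0.34 ± 0.24, with a 95% interval from -0.84 to 0.16. Adult Nqo1 reached 1.57 on mouse 3 at 30 min, beside 0.863 and 0.909 on the other arrays of that group. In young mice the means were 0.750 ± 0.125 (SD, n = 3), 0.829 ± 0.301 and 0.816 ± 0.199 after 30, 60 and 90 min, against 1 ± 0.226 in sham liver. With replicates this far apart, the young intervals reached from -0.90 to 0.20.

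Sod1 and Sod2 encode the superoxide dismutases of the cytosol and of the mitochondrial matrix. Sod2 fell in adult mice after 60 min, to 0.593, 0.761 and 0.765, whereas the adult sham arrays stood at 0.964, 1.02 and 1.02. The groups did not overlap, and the log2 change was -0.51 ± 0.15 (limma adjusted p = 0.0361). After 90 min adult Sod2 stood at 0.659, 0.859 and 0.875, again below all sham arrays, with a change of -0.34 ± 0.15 that did not pass (adjusted p = 0.137). Young Sod2 overlapped sham at each time, with changes of -0.16, -0.11 and -0.08, each ± 0.15.

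Sod1 had the lowest single ratio of the set, 0.468 on adult 60 min mouse 3. The other adult arrays at 60 min stood at 0.705 and 0.859, and the sham arrays at 0.889, 1.02 and 1.09. Its log2 change of -0.60 ± 0.25 was the most negative at 60 min, yet the spread between arrays was wide and it did not pass (limma adjusted p = 0.0994). In young mice Sod1 ranged from 0.639 to 1.35 over the 9 ischemic arrays, and none of its changes passed.

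Cat encodes catalase, the peroxisomal enzyme that splits hydrogen peroxide, and Gpx1 the cytosolic glutathione peroxidase. Gpx1 fell in adult mice after 60 min, to 0.668, 0.807 and 0.851, against 0.970, 1.01 and 1.02 in sham liver. The log2 change was -0.37 ± 0.10 (limma adjusted p = 0.0347). It was the one gene of the set whose adult arrays lay below sham at all 3 times, with 0.875, 0.878 and 0.913 after 30 min and 0.730, 0.870 and 0.930 after 90 min, changes of -0.17 ± 0.10 and -0.25 ± 0.10 that did not pass. Adult Cat stood at 0.664, 0.799 and 0.850 after 60 min and at 0.687, 0.865 and 0.908 after 90 min, against sham arrays at 0.969, 1.01 and 1.02. The arrays were separated at both times, but the changes of -0.38 ± 0.14 and -0.30 ± 0.14 did not pass (limma adjusted p = 0.0768 and 0.183). In young mice the means of Cat lay between 0.945 and 0.977 and those of Gpx1 between 0.887 and 0.948, and all young groups overlapped sham.

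Sod1, Sod2, Cat and Gpx1 were low together on the same arrays. Their mean log2 ratio was -0.76 on adult 60 min mouse 3, beside -0.29 and -0.36 on the other arrays of that group. It was -0.57 on adult 90 min mouse 3, beside -0.16 on each of the other arrays. Young 30 min mouse 3 and young 90 min mouse 3 were also the lowest of their groups, at -0.36 and -0.32. The mean of 14 hepatocyte markers was lowest in its group on the same 4 arrays, at -0.55, -0.45, -0.20 and -0.22. On adult 60 min mouse 3 this held for Kupffer (-0.98), endothelial (-0.35), stellate (-0.21) and neutrophil (-0.14) markers too. T and NK cell (0.28) and red blood cell (0.13) markers were highest there. On young 30 min mouse 3 the Kupffer, endothelial, neutrophil (-0.17) and T and NK cell (-0.05) means were lowest, but not the stellate and red blood cell means. On mouse 3 at 90 min of either age the Kupffer, endothelial, stellate and neutrophil means were not lowest. The red blood cell mean was lowest there in young (0.02) and adult mice (0.07), and the T and NK cell mean in adult mice (0.10). In the other ischemic groups the lowest arrays differed: in young mice at 60 min the enzymes were lowest on mouse 3 (-0.19) and the markers on mouse 1 (-0.15), and in adult mice at 30 min the enzymes on mouse 2 (-0.31) and the markers on mouse 1 (-0.17). In adult mice after 60 min, 2 of the 14 hepatocyte markers fell, Tdo2 and Hpd, 13 of 14 lay below sham, and their median was -0.28. After 90 min 1 fell, Hnf4a, with a median of -0.21. These counts are near the background, as 9.78% of all genes were called lower at 60 min and 6.28% at 90 min. Of all genes 58.7% lay below sham at 60 min. The mean of the markers was -0.55 to -0.12 on the arrays at 60 min and -0.02 to -0.01 on the adult sham arrays. The count at 60 min became 0 without adult sham mouse 1, adult sham mouse 3, adult 60 min mouse 2 or adult 60 min mouse 3, and 9 without adult 60 min mouse 1. The count at 90 min became 0 without any single array but adult sham mouse 2. The part of hepatocyte RNA in the lower ratios of the dismutases, catalase and Gpx1 was not tested.

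Markers of 5 other cell types were counted in the same way. In adult mice at 60 min none of 12 sinusoidal endothelial, 12 stellate cell, 10 neutrophil, 11 T and NK cell and 4 red blood cell markers was called, with medians of -0.22, -0.17, 0.06, 0.17 and 0.13. At 90 min 1 endothelial marker, Stab2, and 2 stellate cell markers, Rgs5 and Colec11, fell, where 6.28% of all genes were called lower. These counts became 0 or 1 when single arrays were left out. In young mice 4 of the 12 stellate cell markers fell at 90 min, where 0.181% of all genes were called. Their median was -0.60, and no other marker was called in young mice at any time. The young count of 4 became 0 without any single array of the comparison but young 90 min mouse 3, and 0 when the shared part of the title code was a block. The median of 38 olfactory receptor genes was 0.11 at 60 min and 0.09 at 90 min in adult mice. The number that ends the title code was 5 for all adult sham arrays, 4 for all adult 60 min arrays and 2, 2 and 6 at 90 min, so at 60 min it cannot be told apart from the group except through the other groups.

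**Figure D3:**
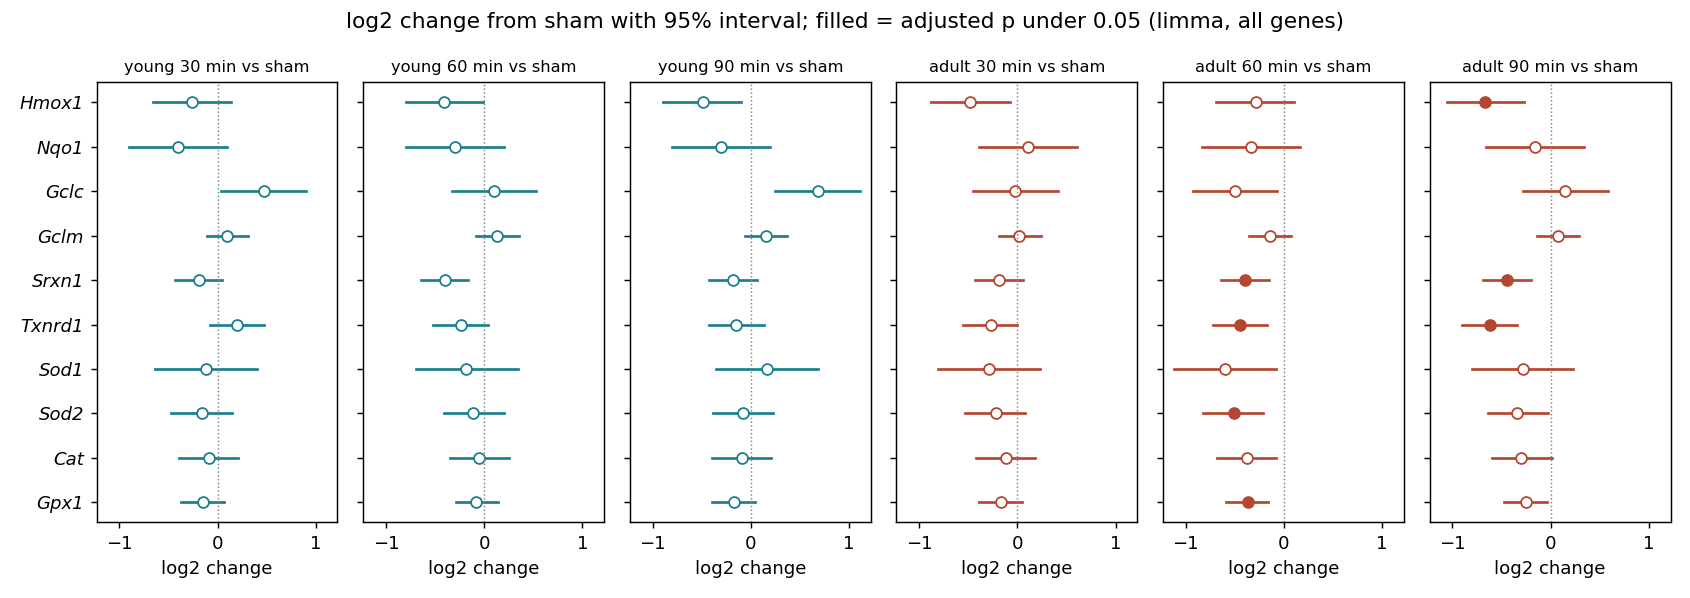
log2 change from sham (horizontal axis) with its 95% interval for each of the 10 genes in the 6 comparisons, young in blue-green and adult in red, where filled points had an adjusted p under 0.05. The 7 filled points all lie below 0, from -0.37 for Gpx1 at 60 min to -0.67 for Hmox1 at 90 min, and all are in adult mice.

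These calls rested on small numbers of arrays. The adult count at 60 min, 4, became 0 without adult sham mouse 1, without adult sham mouse 3, without adult 60 min mouse 2 and without adult 60 min mouse 3. It became 2 without adult sham mouse 2, namely Srxn1 and Hmox1, and 3 without adult 60 min mouse 1, namely Sod2, Gpx1 and Sod1. Hmox1 and Sod1 were not among the original 4. The call of Txnrd1 at 60 min was lost without any single array of the comparison. Those of Srxn1, Sod2 and Gpx1 each held in 1 of the 6 such fits. The adult count at 90 min, 3, became 0 without adult sham mouse 3, adult 90 min mouse 1 or adult 90 min mouse 2, 1 without adult sham mouse 1 or adult 90 min mouse 3, and stayed 3 without adult sham mouse 2. The share of all genes called moved with the same arrays. At 60 min it was 0.0976% without adult sham mouse 1, 4.1% without adult sham mouse 2, 0.0279% without adult sham mouse 3, 0.16% without adult 60 min mouse 2 and 0.00697% without adult 60 min mouse 3, but 15.2% without adult 60 min mouse 1. At 90 min it was 2.17%, 5.62% and 0.0488% without adult sham mice 1, 2 and 3, and 0.118%, 0.634% and 1.85% without adult 90 min mice 1, 2 and 3. The called values themselves stayed below 0 in each of these fits, between -0.27 and -0.97. Quantile normalization of the arrays gave 0 calls among the 10 at both times, and 0% and 0.0209% of all genes, with the changes of the genes called here between -0.19 and -0.45. Centring each array on its median gave 1 at 60 min, Sod2, and 2 at 90 min, Srxn1 and Txnrd1. Over all genes the split at 60 min was 309 higher and 1403 lower, and 477 and 848 after centring. At 90 min it was 168 and 901, and 253 and 704 after centring.

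The age comparisons asked whether the adult response differed from the young one. No first part of the title code is shared between the ages, so it cannot be told apart from age. At 30, 60 and 90 min limma called 0 of the 10 genes and 0% of all genes, and gave 1, 0 and 1 of the 10 and 302, 978 and 1612 of all genes an unadjusted p under 0.05. The median adult minus young difference of the 10 was -0.07, -0.29 and -0.23 at the 3 times. Txnrd1 had the lowest p of the 10 at 90 min, with a difference of -0.47 and a 95% interval from -0.87 to -0.08 (unadjusted p = 0.0207; limma adjusted p = 0.431). At 30 min its difference was also -0.47, with all 3 young arrays above 1 and all 3 adult arrays below 1 (limma adjusted p = 1). Gclc differed by -0.49, -0.60 and -0.53, with intervals that reached from -1.21 to 0.12 over the 3 times. Among the other genes the intervals included -1.18 to 0.28 for Sod1 at 90 min and -0.20 to 1.22 for Nqo1 at 30 min, so these data do not show that the ages responded alike. The falls called in adult mice are therefore not shown to be larger than the changes in young mice.

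Neighbouring times were also compared within each age. For young mice at 60 against 30 min and at 90 against 60 min, and for adult mice likewise, 0 of the 10 genes and 0% of all genes were called in each of the 4 comparisons. By unadjusted p in limma, 1, 1, 1 and 2 of the 10 were under 0.05, as were 741, 1339, 1260 and 458 of all genes. Young Txnrd1 differed by -0.44 ± 0.13 between 30 and 60 min (limma adjusted p = 0.883). Adult Gclc differed by -0.48 ± 0.21 between 30 and 60 min and by 0.65 ± 0.21 between 60 and 90 min (adjusted p = 0.563 and 0.999). The order of the times was thus not resolved for any of the genes.

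The 10 regulators of Nrf2 that were listed were all measured. Nfe2l2 itself did not pass in either age. Its log2 change in young mice was 0.42 ± 0.16, 0.32 ± 0.16 and 0.65 ± 0.16 at 30, 60 and 90 min (limma adjusted p = 0.426, 0.5 and 0.108), and in adult mice 0.11, -0.03 and 0.17. Young Nfe2l2 stood at 1.22, 1.33 and 1.48 after 30 min, 1.01, 1.17 and 1.62 after 60 min and 1.29, 1.71 and 1.74 after 90 min, against 0.951, 0.971 and 1.08 in sham liver, so the arrays at 30 and 90 min lay above all sham arrays. Keap1 and Bach1, the repressor that competes with Nrf2 for its elements, did not pass in any comparison. In adult mice 3 of the 10 regulators fell at 60 min and 3 at 90 min, and none was called higher. Over all genes 9.78% and 6.28% were called lower at these times. Sqstm1, the autophagy receptor p62 that binds Keap1 and is also induced by Nrf2, fell by 0.55 ± 0.14 at 60 min (limma adjusted p = 0.0313) and by 0.52 ± 0.14 at 90 min (adjusted p = 0.0353), from sham ratios of 0.848, 0.999 and 1.15 to 0.560, 0.663 and 0.837 at 60 min. Mafg, a small Maf partner, fell by 0.40 and 0.38. Rbx1 fell at 60 min and Cul3 at 90 min, both parts of the ligase that destroys Nrf2. Each of the 2 regulator counts of 3 became 0 without adult sham mouse 1, without adult sham mouse 3 and without mouse 2 or 3 of the ischemic group, and the count at 90 min also without mouse 1 of that group. Without adult sham mouse 2 each became 2.

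Among 27 measured genes of a list of other Nrf2 targets, 12 fell and none rose in adult mice at 60 min, and all 27 lay below sham, with a median of -0.40. Of all genes 9.78% were called lower there and 58.7% lay below sham. Gsta2, an alpha class glutathione S-transferase, stood at 0.353, 0.421 and 0.536 against 0.761, 0.907 and 1.33 in sham liver, a log2 change of -1.18 ± 0.37 (limma adjusted p = 0.0450). Gstm3, a mu class transferase, stood at 0.441, 0.509 and 0.546, a change of -1.0 ± 0.22. Abcc4, an efflux transporter of the cell membrane, fell by 0.72 ± 0.21. At 90 min 6 of the 27 fell, among them Abcc4 at -0.78 and Gsta3 at -0.51, and 24 lay below sham. The shares of all genes were 6.28% called lower and 56.5% below sham. The count of 12 became 0 without adult sham mouse 1, adult sham mouse 3 or adult 60 min mouse 3, 1 without adult 60 min mouse 2 and 6 without adult sham mouse 2. The count of 6 became 0 without adult sham mouse 3 or any 1 of the 90 min arrays, 2 without adult sham mouse 1 and 4 without adult sham mouse 2. In young mice, and in adult mice at 30 min, none of the 27 was called, nor any of the regulators or of the enzyme and heme lists that follow.

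**Figure D4:**
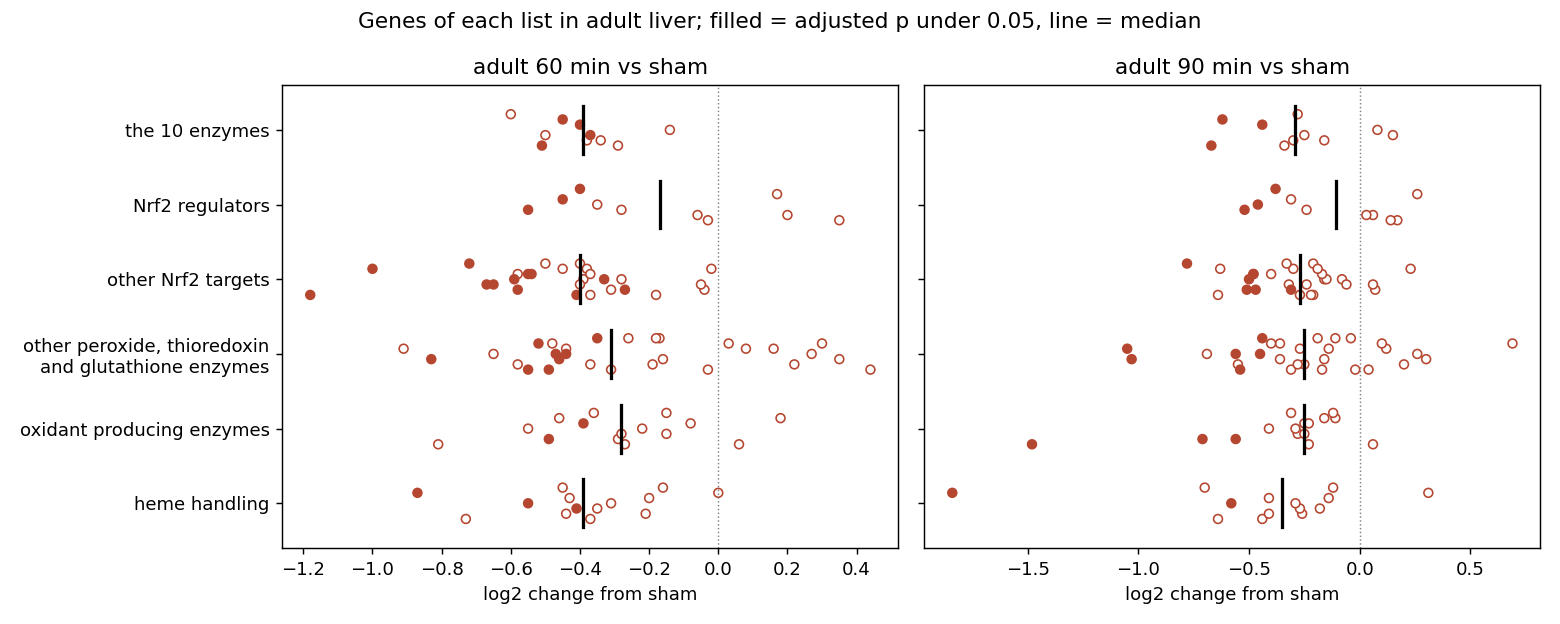
log2 change from sham (horizontal axis) of each gene of 6 lists in adult mice at 60 and 90 min, with filled points for an adjusted p under 0.05 and a line at the median of each list. At 60 min the medians of the 10 enzymes and of the other Nrf2 targets were -0.39 and -0.40, and that of the Nrf2 regulators was -0.17.

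Of 29 other peroxide, thioredoxin and glutathione enzymes, 8 fell at 60 min and 6 at 90 min in adult mice, and none was called higher. Over all genes 9.78% and 6.28% were called lower at these times. Glrx, which reduces protein mixed disulfides with glutathione, stood at 0.509, 0.565 and 0.570 at 60 min and at 0.439, 0.468 and 0.531 at 90 min, against 0.783, 0.894 and 1.32 in sham liver, changes of -0.83 ± 0.23 and -1.03 ± 0.23. Of the 29, 21 lay below sham at 60 min, where 58.7% of all genes did. Prdx3, Prdx5 and Prdx6 were among the 8 at 60 min, with changes of -0.49, -0.46 and -0.47. These peroxiredoxins, which remove hydrogen peroxide, were picked here after their values were seen. Prdx1, Prdx2 and Prdx4, also on the list, did not pass there, with changes of -0.48, -0.17 and -0.58. Txnrd2, the mitochondrial partner of Txnrd1, fell by 0.35 and 0.44. Glrx3 fell by 1.05 at 90 min. The count at 60 min became 0 without adult sham mouse 1 or 3 or adult 60 min mouse 2 or 3, and 2 without adult sham mouse 2. That at 90 min became 0 without adult sham mouse 3 or adult 90 min mouse 1 or 2, 1 without adult sham mouse 1, 2 without adult 90 min mouse 3 and 4 without adult sham mouse 2.

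Of 15 measured enzymes that make oxidants, 2 fell at 60 min in adult mice, among them Xdh, the xanthine dehydrogenase that can act as an oxidase, by 0.49 ± 0.12. This count is near the background, as 9.78% of all genes were called lower there. At 90 min, where 6.28% were, 3 fell, among them Cybb and Cyba, subunits of the phagocyte NADPH oxidase. Cybb stood at 0.259, 0.363 and 0.430 against 0.733, 0.839 and 1.43 in sham liver, a change of -1.48 ± 0.32 (limma adjusted p = 0.0201). Of 14 heme handling genes, 3 fell at 60 min, Cd163, Urod and Blvrb, and 2 at 90 min, Cd163 and Urod. Urod, an enzyme of heme synthesis, fell by 0.55 ± 0.15 and 0.58 ± 0.15, and Blvrb, a biliverdin reductase that acts after heme oxygenase, by 0.41 ± 0.11. At 60 min both counts became 0 without adult sham mouse 1 or 3 or adult 60 min mouse 2 or 3, and 1 without adult sham mouse 2. Without adult 60 min mouse 1 they became 5 and 8. At 90 min the count of 3 became 0 without adult sham mouse 3 or adult 90 min mouse 1 or 2, and 2 without adult 90 min mouse 3, and the count of 2 became 1 without any single array but adult sham mouse 2.

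Across the 24 arrays, up to 3 genes outside the set whose log2 ratios followed each of the 10 most closely are given as a description. The arrays share ages, groups and the sham scaling, and no p is given. Hmox1 was followed most closely by Clec4n (Pearson r = 0.83), a C-type lectin of myeloid cells, by Cd163 (0.82) and by Msrb3 (0.80). Sod2 was followed by Akr1a1 (0.97), Snx3 (0.96) and Sdha (0.96), Cat by Mup3, Idh1 and Serpina1a (0.95 to 0.96), and Gpx1 by Higd2a, Mgst1 and Aadac (0.93 to 0.95). The Mup3 and Serpina1a products are proteins that hepatocytes secrete. Sod1 was followed by Dpyd, Mrpl39 and Cept1 (0.92 to 0.93), Srxn1 by Dynlt3, Rnf14 and Snap23 (0.90 to 0.91), and Txnrd1 by Smc1a, Eif4g1 and Snx9 (0.88 to 0.90). Gclc was followed by Ahctf1 (0.88) and Svil (0.86), Gclm by Sppl2a, Atp2b1 and Dnajb6 (0.78 to 0.80), and Nqo1 by Nap1l3, Sccpdh and Dgat1 (0.76 to 0.78).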

How the data were processed

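Liver RNA was hybridized to 24 Affymetrix 3' arrays, 3 per group, per the labels. The deposited values are linear ratios made with RMA, per the submitters' processing notes, with no version given. In the files the 3 sham ratios of an age average 1 for each of the 26180 probe sets. RefSeq accessions were turned into symbols with a RefSeq table, which named 15228 probe sets and left 10952 unnamed, and 1 probe set per gene left 14351 genes. A filter on dim probe sets needs brightness and was not run.

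The model, run with limma 3.58.1 under R 4.3.3, gave each of the 8 groups its own mean log2 ratio, which left 16 degrees of freedom for the residual beside 4.53 for the prior. It served 13 two-sided comparisons. It was also run on simulated data with independent noise on every array and with changes larger than those called among the 10 genes. That run therefore does not cover shifts shared by a whole array or changes of the size called here. Groups came from the labels alone. The 10 genes and all gene lists were chosen with earlier results of these data known. From each other list the called genes with the largest changes are named, up to 3 in adult mice at 60 min and 2 elsewhere, with Nfe2l2, Keap1 and Bach1 always. Mafg at 90 min, Txnrd2 and the peroxiredoxins were named after their values were seen. Of the genes the rules name, 2 are not reported here. Promoters came from RefSeq (GRCm38.p6). Alternatives are described with the dependence on processing.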

Additional observations from a re-analysis of the deposited data

How the results depend on the processing

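Of 1590 recomputed log2 changes of the 10 genes, 76 changed sign, all of them values within 1 standard error of 0 that had not passed. No called value reversed. Adult mice at 60 min had 4 calls, and 0 under quantile normalization, 1 with arrays centred on their median, 0 from arrays of 1 age only and 7 with the number in the title code as a covariate. At 90 min the 3 calls became 0 under quantile normalization, 0 from arrays of 1 age only and 4 with that covariate, while blocking on the opening of the title code, which adult sham, 30 and 60 min mice of the same number share, gave 4 and 3 and changed no other count of calls among the 10. Leaving out single arrays gave 0 to 3 calls at 60 min, 0 to 3 at 90 min and 0 to 1 at 30 min in adult mice. Array weights gave 1 call in young mice at 30 min (Gclc, 0.66), 1 at 90 min (Gclc, 0.89), 2 in adult mice at 30 min (Srxn1, -0.29, and Sod2, -0.38) and 1 for the age difference at 90 min (Gclc, -0.75), where the fit with equal weights had 0. With these weights 2.12%, 6.06% and 16.4% of all genes were called in those 3 comparisons with sham. The lists' counts, recomputed after the data were seen, followed the same settings: for the other Nrf2 targets in adult mice at 60 min the 12 became 0 under quantile normalization and 5 after centring, and for Kupffer cell markers at 90 min the 12 became 1 and 12. The causes were not tested. Under quantile normalization the adult changes of the called genes lay closest to 0, from -0.19 to -0.45. A filter on dim probe sets could not be run, since the ratios keep no brightness, and signal over background is unknown.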
